A study of Homo sapiens with 17 samples.

Results

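The regions described here are broad stretches of human chromatin that gained H3K4me3 in replicative senescence and are mostly missing from the matching list of oncogene-induced senescence. They were chosen from the authors' list of replicative H3K4me3 mesas, which holds 648 regions, of which 587 lie on chromosomes 1 to 22. A region was taken when less than 50% of its base pairs lay under the authors' list of Ras-induced H3K4me3 mesas. This gave 228 members on 21 autosomes, which is 38.8% of the autosomal list, and the other 359 autosomal regions, with 50% or more of their base pairs under Ras-induced mesas, are called mostly shared below. A mesa is, in the study's naming, a broad region with more of a histone mark in senescent cells than in their dividing or control counterparts, and a canyon is a region with less. The track line of the replicative H3K4me3 list states that direction, and for the other lists it is taken from their names.

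The cells were IMR90, a line of human lung fibroblasts grown at low oxygen, and all lists come from chromatin immunoprecipitation followed by sequencing. Replicative H3K4me3 mesas compare proliferating cells at population doubling 24 with senescent cells at doubling 87 that had been kept for 2 weeks after growth stopped. Ras-induced mesas compare control cells at doubling 15 with cells at doubling 15 in which an ER:Ras fusion, carried by a retrovirus, was switched on with 100 nM 4-hydroxytamoxifen. Each of these 4 groups holds 1 H3K4me3 library, and the description of the senescent one in GEO, like that of 1 senescent H3K27me3 library, reads only "[delete]]", with no reason given. Lamina-associated domains (LADs) come from 1 lamin B1 library of proliferating cells at doubling 24. H3K27me3 mesas and canyons compare proliferating with senescent cells, as taken from their names. The series holds 4 proliferating and 2 senescent H3K27me3 libraries, and which of them entered these lists is not stated. The labels do not say whether the control cells carried the Ras construct or received the drug. Nor do they give the number of days of Ras induction.

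H3K4me3 is laid down by COMPASS-type methyltransferases and normally sits in sharp peaks at active and poised promoters, so a gain spread over a stretch this broad is an unusual form of this mark. LADs are the parts of the genome held against the nuclear lamina, the protein mesh under the nuclear envelope. They are mostly gene-poor and transcriptionally quiet. Lamin B1, a structural filament of that mesh, is lost from cells that enter senescence. H3K27me3 is the repressive mark written by Polycomb repressive complex 2, and it can spread in broad blocks over silent chromatin.

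The deposited lists give positions in the hg18 build of the human genome and no signal, read count or p-value for any region or library. The depth is therefore unknown, no value exists per replicate, and no test between conditions or between sets could be made. All contrasts below are descriptions of these lists. Intervals on shares of regions are 95% Clopper-Pearson intervals, which cover counting error only, and neighbouring regions share libraries and chromosomes. A region missing from the Ras-induced list did not reach the authors' criteria there, which does not show that H3K4me3 was unchanged in the Ras-induced cells. The lists carry no marker genes, so the labelled cell type could not be checked.

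Most members did not meet the Ras-induced list at all. Of the 228 members, 186 shared no base pair with a Ras-induced mesa. Over all 587 autosomal replicative mesas 31.7% had no such overlap, and since the selection used this measure, nothing is read from the contrast. A further 13 members had less than 25% of their base pairs under Ras-induced mesas and 29 had 25% to less than 50%. On the other side of the limit, 62 mesas had 50% to less than 75% cover, 147 had 75% to less than 100% and 150 lay wholly under Ras-induced mesas. Replicative mesas therefore mostly had either no Ras overlap or 75% and more cover. The smallest class was not at the limit but at cover above 0 and below 25%. Among the 42 members that were touched, a Ras-induced mesa reached in from 1 side in 37, from both sides in 2, and lay wholly inside the member in 3.

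**Figure D1:**
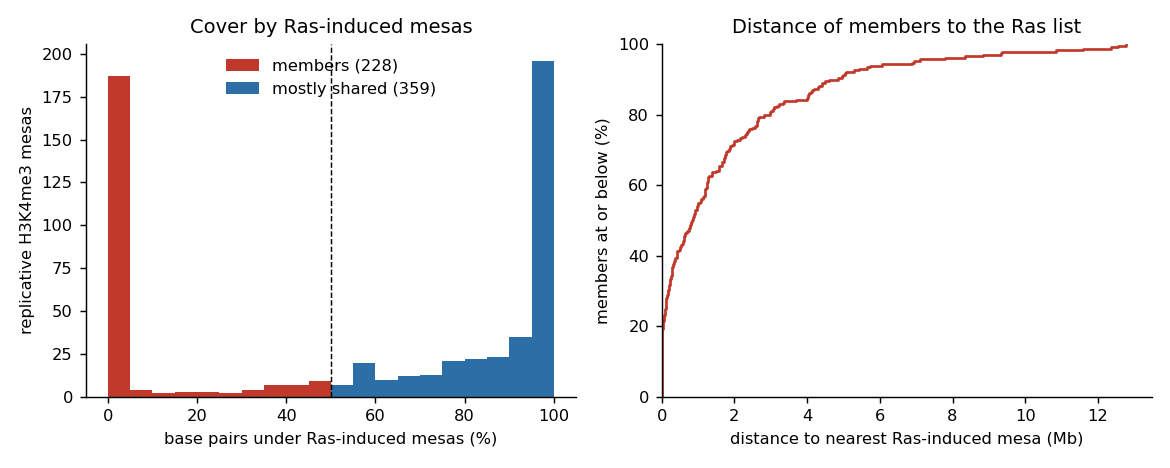
Left, the number of autosomal replicative H3K4me3 mesas by the share of their base pairs under Ras-induced mesas, in steps of 5 percentage points, with the dashed line at the 50% limit (members red, mostly shared blue). Right, the share of the 228 members that lie at or below a given distance from the nearest Ras-induced mesa. The left panel has tall bars only at its ends, and the right curve starts at the 42 touched members and reaches 12.8 Mb.

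The members nearest to the limit were a region of 1220 kb on chromosome 8 at 35815001 to 37034999, a region of 914 kb on chromosome 2 at 29296001 to 30209999 with 49.1% Ras cover, and a region of 575 kb on chromosome 8 at 88218001 to 88792999 with 48.7%. The first of these sits at the limit itself, and it is a member only because the coordinates are read as BED positions, with starts counted from 0. Just outside were a region of 572 kb on chromosome 2 at 60038001 to 60609999 with 50.3% Ras cover, a region of 703 kb on chromosome 6 at 87099001 to 87801999 with 50.8%, and a region of 610 kb on chromosome 12 at 13315001 to 13924999 with 52.6%. Regions on both sides of the limit had alike surroundings in part: the chromosome 8 member at 88218001 lay wholly under H3K27me3 mesas, and the chromosome 2 and 12 regions outside it had 96.1% and 93.0% of their base pairs there.

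The distance from a member to the nearest Ras-induced mesa, measured edge to edge and set to 0 where they overlap, had a median of 847 kb and quartiles of 102 kb and 2359 kb. Among the 186 untouched members the nearest was 12 kb away and the median was 1230 kb. Of these, 15 lay within 100 kb of a Ras-induced mesa and 53 within 500 kb. At the far end, 105 of the 228 members were over 1000 kb away and 20 were more than 5000 kb away. The members thus ran from near misses at the border of a Ras-induced mesa to regions many megabases from any.

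The 5 most distant members were on chromosomes 1, 5 and 6. Those on chromosome 1 at 95690001 to 96513999 (824 kb) and at 99041001 to 99549999 (509 kb) lay 12.8 Mb and 12.6 Mb from a Ras-induced mesa. The member on chromosome 5 at 89108001 to 89749999 (642 kb) was 12.4 Mb away. On chromosome 6 the members at 118088001 to 118776999 (689 kb) and at 117323001 to 117850999 (528 kb) were 11.6 Mb and 10.8 Mb away and are neighbours of each other. All 5 lay wholly inside a LAD, with no base pair under an H3K27me3 canyon and at most 1.98% under H3K27me3 mesas. They carried the replicative H3K4me3 gain with next to no called change in H3K27me3.

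Members were shorter than mostly shared mesas. Their median length was 639 kb, with quartiles of 547 and 785 kb and a range from 502 to 1751 kb, against a median of 732 kb and a range from 502 to 3042 kb for mostly shared mesas. The lower ends are alike because the list holds no shorter replicative mesa than 502 kb on autosomes. Over the 16 chromosomes with at least 5 mesas of each kind, the median length averaged 644 ± 49.6 kb (SD over chromosomes) for members and 732 ± 75.1 kb for mostly shared mesas, and it was lower for members on 14 of the 16. The 186 untouched members had a median of 619 kb. The 13 with cover above 0 and below 25% had a median of 853 kb, and the 29 with 25% to less than 50% had 790 kb. Length and Ras cover are not independent measures, since a longer region can meet more of another list.

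The 5 longest members differed in what surrounded them. The longest, 1751 kb on chromosome 2 at 128882001 to 130632999, had 64.9% of its base pairs under H3K27me3 mesas, 83.0% in LADs and 31.8% under Ras-induced mesas. The member after it in length, 1506 kb on chromosome 9 at 88814001 to 90319999, touched neither H3K27me3 list and had 92.0% of its base pairs in a LAD. A member of 1335 kb on chromosome 16 at 31434001 to 32768999 lay wholly inside a LAD of 4170 kb, with 8.93% under H3K27me3 mesas. The members of 1227 kb on chromosome 11 at 5156001 to 6382999 and 1220 kb on chromosome 3 at 75187001 to 76406999 were the only 2 of these 5 with no Ras overlap, at 2.15 Mb and 2.31 Mb from the nearest Ras-induced mesa. On chromosome 11, 51.3% of the member lay under H3K27me3 mesas and 12.9% under canyons, so gain and loss of H3K27me3 met inside a single H3K4me3 region.

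Members lay inside LADs. Of their 159 Mb, 90.6% was in LADs, against 88.5% for the 293 Mb of mostly shared mesas and 61.2% of the autosomal span. By region, 216 of 228 members had at least 50% of their base pairs in LADs (94.7%, interval 91.0 to 97.2%), a share near the 93.7% of all 587 autosomal replicative mesas. In all, 135 members lay wholly inside 1 LAD (59.2%, interval 52.5 to 65.6%), against a background of 55.4%, and 89 crossed a LAD edge, against a background of 42.9%. Only 4 members touched no LAD, against a background of 1.70%. The LAD share was thus close to that of replicative mesas in general, and over the 16 chromosomes it averaged 91.6 ± 6.63% (SD) for members and 88.7 ± 5.29% for mostly shared mesas, with members higher on 9 and lower on 7.

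Of these 4, the member on chromosome 2 (39641001 to 40247999) lay wholly under a canyon of 4583 kb. The member on chromosome 17 (43111001 to 43876999) had 99.95% of its base pairs under a canyon. Of the pair on chromosome 9, the member from 115791001 to 116399999 had 82.0% under canyons. The other, from 136250001 to 136788999, touched neither H3K27me3 list and lay 32 kb from a Ras-induced mesa; it is named after its values were seen, because it completes this count. At least 50% canyon cover was thus found in 3 of these 4 members, against 3 of the 6 mostly shared mesas that touched no LAD, counts too small to tell apart.

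The LADs that held members were long. For the 214 members whose midpoint lay in a LAD, the LAD had a median length of 1555 kb, with quartiles of 945 and 2823 kb and a range from 100 to 7820 kb. All autosomal LADs had a median of 430 kb, but a mesa of over 500 kb fits whole only inside a longer LAD, and a midpoint falls more often in a long LAD. For mostly shared mesas the median was 1470 kb, with quartiles of 845 and 2220 kb. LADs of 3 Mb and more held 51 of the 214 members (23.8%, interval 18.3 to 30.1%) and 62 of 331 mostly shared mesas (18.7%, interval 14.7 to 23.4%), whose intervals overlap.

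Within their LADs, members were spread from edge to centre. The midpoint lay a median of 382 kb from the nearer LAD edge, against 385 kb for mostly shared mesas. As a share of the LAD's length this was 29.1% for members and 31.2% for mostly shared mesas, on a scale on which 0% is the edge and 50% the centre. Midpoints of 69 members (32.2%) lay in the outermost of 5 equal slices at either end of their LADs and 62 (29.0%) in the central slice. The mostly shared mesas had 95 (28.7%) and 102 (30.8%) there.

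The 214 members fell in 191 separate LADs, of which 173 held 1 member and 18 held 2 or 3. Of the 191 LADs, 121 were touched by no Ras-induced mesa and 169 held no midpoint of a mostly shared mesa. For the untouched members the same LAD met a Ras-induced mesa elsewhere in 45 of 174 cases (25.9%). Members were chosen for low Ras cover. They often filled much of their LAD, with replicative mesas on a median of 56.0% of its base pairs. The counts of Ras-induced and mostly shared mesas in these LADs therefore follow in part from the choice. No matching counts over all LADs that hold a replicative mesa are given here, so they are not read as low or high. The 2 longest LADs with 3 members each were on chromosome 1 at 101540001 to 108940000, with no Ras-induced mesa and 0.203% of base pairs under H3K27me3 mesas, and on chromosome 16 at 56570001 to 62940000, with 19.4% under Ras-induced and none under H3K27me3 mesas. The LAD with 3 members on chromosome 9 at 74400001 to 76820000 had 80.3% of its base pairs under H3K27me3 mesas.

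**Figure D2:**
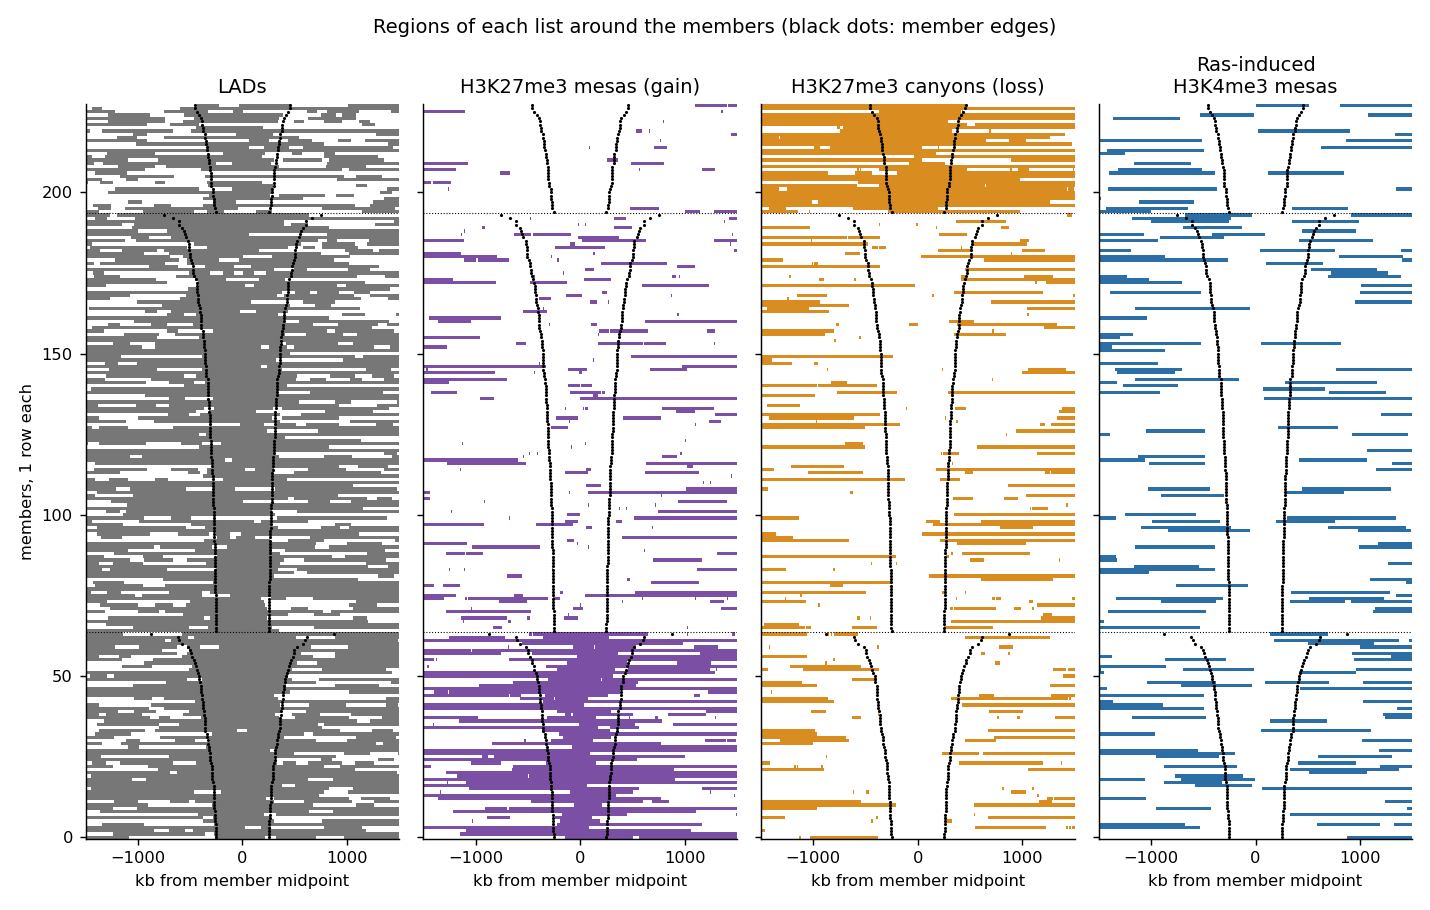
Each row is 1 of the 228 members, centred on its midpoint and drawn to scale over 1500 kb to either side, with the regions of 1 list as bars in each panel and black dots at the member's edges. Dotted lines part the 64 members at least 50% under H3K27me3 mesas (bottom), the 130 under 50% of each H3K27me3 list (middle) and the 34 at least 50% under canyons (top), sorted by length in each class; LAD bars fill most rows between the dots, and Ras-induced bars enter only 42 members.

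Members overlapped with H3K27me3 gain less than mostly shared mesas did. Of member base pairs, 28.8% lay under H3K27me3 mesas and 16.4% under canyons, and 54.8% under neither list. For mostly shared mesas these shares were 46.8%, 15.2% and 38.0%, and for the autosomal span 17.2% was under H3K27me3 mesas and 35.6% under canyons. The median member had 1.90% of its base pairs under H3K27me3 mesas and the median mostly shared mesa 41.8%. The difference of 17.9 points in base pairs is not separate from the overlap between the Ras-induced and H3K27me3 lists themselves, because the sets were parted by Ras cover.

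By region, 64 of 228 members had at least 50% of their base pairs under H3K27me3 mesas (28.1%, interval 22.3 to 34.4%), against 169 of 359 mostly shared mesas (47.1%, interval 41.8 to 52.4%) and a background of 39.7% of all 587. An H3K27me3 mesa did not touch 98 members (43.0%, interval 36.5 to 49.7%), against a background of 30.5%. Neither H3K27me3 list touched 52 members (22.8%, interval 17.5 to 28.8%), against 28 mostly shared mesas (7.80%, interval 5.24 to 11.1%) and a background of 13.6%. Because the intervals treat neighbouring regions as independent, they are no test between members and mostly shared mesas. At the high end the sets were alike: 24 members lay wholly under H3K27me3 mesas, which is 10.5% against a background of 10.9%. At the 50% level the loss of H3K27me3 was also alike, with 34 members at least 50% under canyons, which is 14.9% against a background of 14.8%. Members wholly under a canyon numbered 23 (10.1%, interval 6.50 to 14.7%), against 19 mostly shared mesas (5.29%, interval 3.22 to 8.14%) and a background of 7.16%. These intervals overlap.

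The lower H3K27me3 mesa cover of members was seen on most chromosomes. Over the 16 chromosomes with at least 5 mesas of each kind it averaged 27.5 ± 13.2% (SD over chromosomes) for members and 48.9 ± 14.7% for mostly shared mesas, a difference of -21.5 ± 17.0 points. Members were lower on 14 of the 16. The exceptions were chromosome 11, with 29.0% for members and 22.6% for mostly shared mesas, and chromosome 12, with 57.4% and 57.2%. Among members the value ran from 5.53% on chromosome 4 to 57.4% on chromosome 12, and among mostly shared mesas from 18.8% to 69.2%. Canyon cover showed no side, with members higher on 8 and lower on 8.

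The difference was not the same in LADs of every size. In LADs of under 1 Mb, H3K27me3 mesas covered 23.2% of the base pairs of 61 members and 21.6% of those of 109 mostly shared mesas. In LADs of 1 to 3 Mb the values were 31.8% for 102 members and 58.0% for 160 mostly shared mesas. In LADs of 3 Mb and more they were 34.4% for 51 members and 67.1% for 62 mostly shared mesas. The sets were thus close in short LADs and far apart in long ones. Canyon cover of members went the other way, from 29.0% in LADs of under 1 Mb to 10.3% and 6.64% in the longer classes. These size classes were chosen after the values were seen.

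The 3 H3K27me3 classes of members had different surroundings, and among mostly shared mesas the classes stood in the same order by share of base pairs in LADs. The 64 members at least 50% under H3K27me3 mesas had 96.8% of their base pairs in LADs, 45 of them lay wholly inside 1 LAD, and their median distance to a Ras-induced mesa was 452 kb. The 34 members at least 50% under canyons had 73.3% of their base pairs in LADs, 11 lay wholly inside 1 LAD, and the median distance was 1218 kb. Over all 587 autosomal mesas, 72.5% of the first class and 21.8% of the second lay wholly inside 1 LAD, and for members these shares were 70.3% and 32.4%. Among mostly shared mesas, 96.7% of base pairs of the first class and 68.0% of the second were in LADs. The LADs at the midpoints of members had a median length of 1680 kb in the first class and 940 kb in the second, against 1940 and 780 kb for mostly shared mesas. The 130 members under 50% of each list had 91.7% of their base pairs in LADs, against 85.2% for the 137 mostly shared mesas of that class. Their median LAD length was 1730 kb against 975 kb, and 60.8% against 42.3% lay wholly inside 1 LAD. Of the 130, 108 had no Ras overlap (83.1%), near the 81.6% of all 228 members.

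Of the 34 canyon members, 25 had at least 50% of their base pairs in LADs (73.5%), close to the 74.7% of all 87 autosomal mesas at least 50% under canyons. The 52 members that met no H3K27me3 region at all were short, with a median of 591 kb, and lay in long LADs, with a median of 2345 kb, and 41 of them were wholly inside 1 LAD. The 24 members wholly under H3K27me3 mesas also lay in long LADs, with a median of 2325 kb, and their median distance to a Ras-induced mesa was 79.5 kb. Long LADs therefore held both members wholly within an H3K27me3 gain and members with no called H3K27me3 change. A shorter region can meet fewer listed regions, so the short length of the 52 follows in part from how they were picked. Matching values for mostly shared mesas are not given here.

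Examples of the classes show how large the blocks involved can be. Many members were tied at full cover and ties went to the longer region, so the examples are long for their class. The member on chromosome 2 at 5937001 to 7141999 (1205 kb) lay wholly under an H3K27me3 mesa of 5516 kb, with 35.0% Ras cover. The members on chromosome 8 at 62888001 to 63882999 (995 kb) and chromosome 9 at 27584001 to 28508999 (925 kb) lay wholly under H3K27me3 mesas of 4045 and 4933 kb, the first at 4.14 Mb from a Ras-induced mesa and the second with 19.1% Ras cover. On chromosome 11 at 40223001 to 41372999, a member of 1150 kb was wholly inside a LAD of 6900 kb and 97.96% under H3K27me3 mesas. Among canyon members, the region on chromosome 2 at 29296001 to 30209999 lay wholly under a canyon of 3998 kb, that on chromosome 12 at 79973001 to 80883999 (911 kb) under a canyon of 5565 kb inside a LAD of 3980 kb, and that on chromosome 11 at 108508001 to 109341999 (834 kb) under a canyon of 9781 kb. In each of these 3, gain of H3K4me3 and loss of H3K27me3 were listed over the same base pairs.

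**Figure D3:**
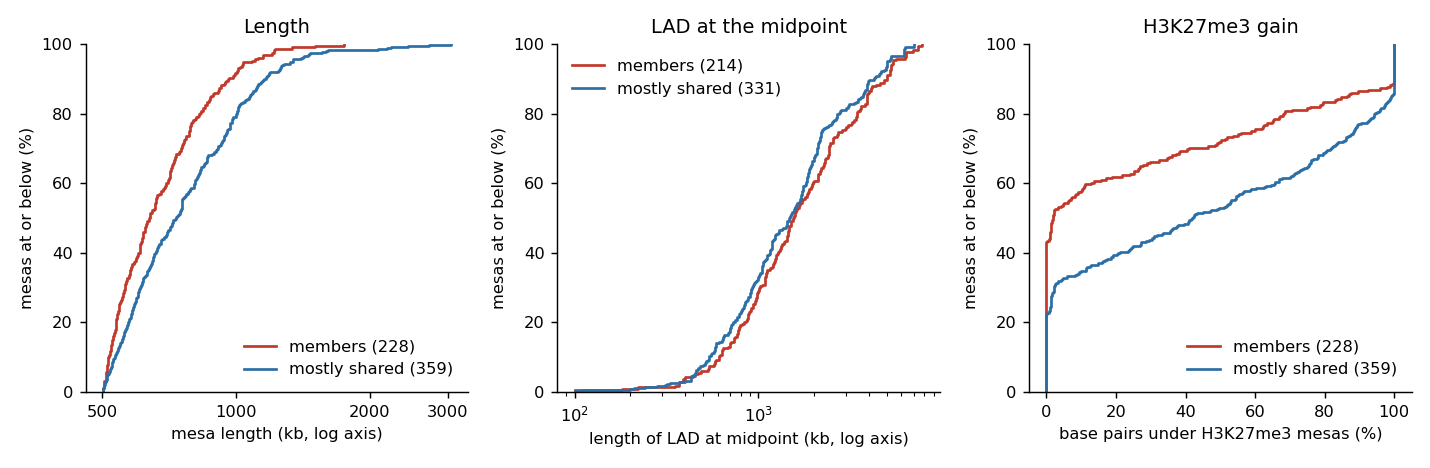
Cumulative shares of members (red) and mostly shared mesas (blue) by mesa length in kb, by length in kb of the LAD at the midpoint (both on log axes) and by the share of base pairs under H3K27me3 mesas. The member curve lies to the left for length (median 639 against 732 kb), crosses the other curve for LAD length, and lies well above it for H3K27me3 mesa cover, starting from the 43.0% of members that no such mesa touches.

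Inside the 42 members that a Ras-induced mesa touched, the part under Ras and the part outside it could be set side by side. Of the 11.6 Mb under Ras-induced mesas, H3K27me3 mesas covered 41.9% and LADs 93.2%. In the other 24.2 Mb of the same members, H3K27me3 mesas covered 40.2% and LADs 92.0%. Many members could not differ, because a list covered all or none of them: 30 of the 42 for LADs, 21 for H3K27me3 mesas and 31 for canyons. Among the others, LAD cover was higher in the Ras part in 9 members and lower in 3, and H3K27me3 mesa cover was higher in 12 and lower in 9. Canyon cover was 18.8% under Ras and 9.66% outside, higher in 6 members and lower in 5.

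The edges of members lay where LAD cover dropped. LAD cover was 92.8% at 200 to 250 kb inside the edge, 83.9% in the last 50 kb inside, 74.8% in the first 50 kb outside and 65.1% at 100 to 150 kb outside, near the 61.2% of the autosomal span. Around mostly shared mesas it went from 89.9% to 65.8% in the first 50 kb outside and had its lowest value of 52.9% at 100 to 150 kb. H3K27me3 mesa cover around members went from 30.3% at 200 to 250 kb inside to 19.9% in the first 50 kb outside, and stayed between 19.4% and 22.2% up to 1000 kb. Canyon cover went from 15.7% at 200 to 250 kb inside to 30.0% at 950 to 1000 kb, with a near-identical course for mostly shared mesas. Ras-induced mesas covered 9.57% of the first 50 kb outside members and 20.6% at 950 to 1000 kb, a value below the 24.2% of the autosomal span.

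**Figure D4:**
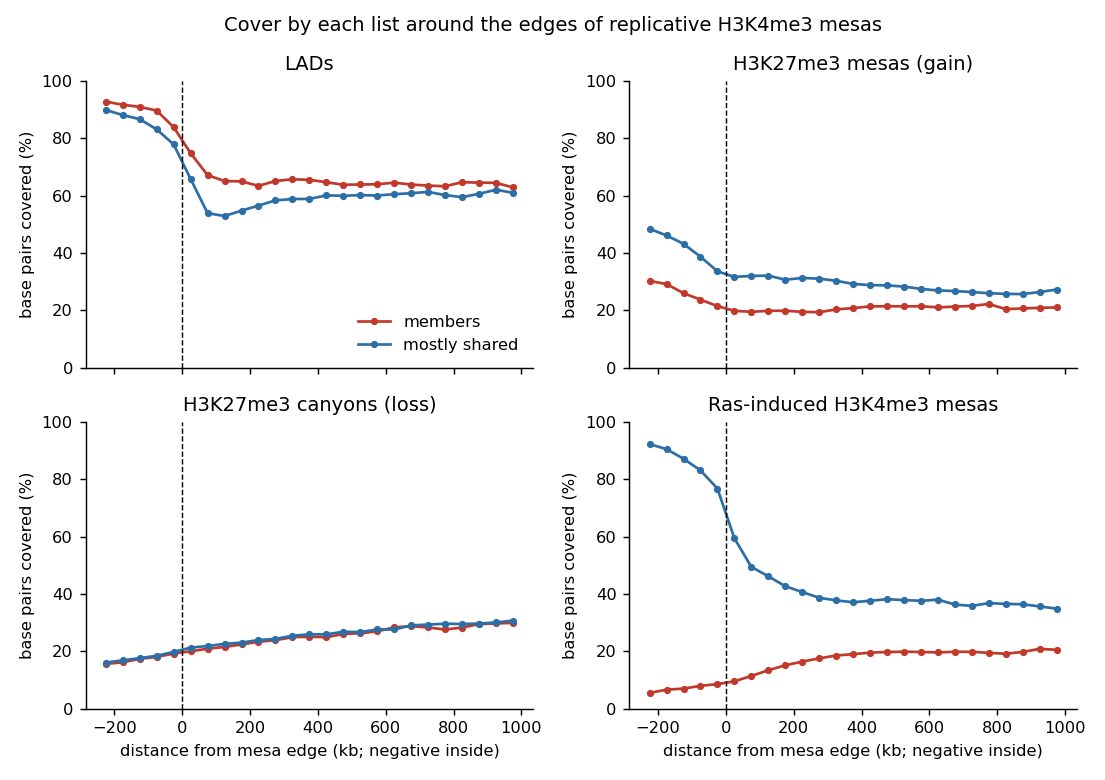
Share of base pairs covered by each list in bins of 50 kb, from 250 kb inside to 1000 kb outside the edges of members (red) and mostly shared mesas (blue), both edges pooled, with the dashed line at the edge. LAD cover drops at the edge in both sets, H3K27me3 mesa cover is lower for members throughout, and the canyon curves lie on each other.

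Members were unevenly spread over the autosomes, and were the larger part of the replicative mesas on 2 of them. On chromosome 8, 24 of 38 replicative mesas were members (63.2%), and on chromosome 9, 19 of 33 (57.6%). These chromosomes held 18.9% of the members and 7.80% of the mostly shared mesas. Chromosome 19 had 1 member among 21 replicative mesas, chromosome 22 had 1 among 10, and chromosome 21 had none among 5. Over the 22 autosomes the median share was 34.4%. Ras-induced mesas covered 53.2% of chromosome 19, 25.2% of chromosome 8 and 19.1% of chromosome 9, against 24.2% of all autosomes, so on chromosome 8 the high count of members stood beside a near-average Ras cover. Because the rule uses Ras cover, these counts are given as a description.

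**Figure D5:**
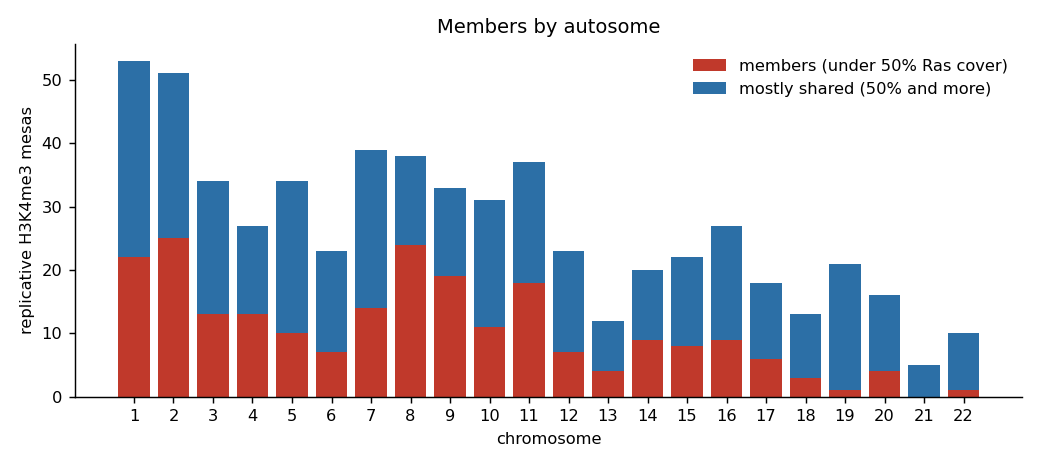
Number of autosomal replicative H3K4me3 mesas per chromosome, as stacked bars of members (red) and mostly shared mesas (blue). The red part is the larger on chromosomes 8 and 9, and is 1 region on chromosomes 19 and 22 and none on 21.

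Part of the members stood in rows along the chromosomes. The nearest replicative mesa to a member was another member in 118 of 228 cases (51.8%), and the nearest to a mostly shared mesa was a member in 104 of 359 (29.0%). Members made up 38.8% of all 587 autosomal replicative mesas. Taken in order, the 228 members formed 112 unbroken rows, of which 64 were single and 14 had 4 or more members. Rows also arise in a random order, and these counts were not set against one. The longest row had 13 members on chromosome 8 between 53818001 and 94832999, a stretch of 41.0 Mb with 8.70% of its base pairs under 6 Ras-induced mesas and 30.9% under H3K27me3 mesas. A row of 10 on chromosome 1 between 76029001 and 111430999 spanned 35.4 Mb, touched a single Ras-induced mesa (1.71% of base pairs), and had 4.37% under H3K27me3 mesas and 20.2% under canyons. A row of 6 on chromosome 9 between 9100001 and 28508999 had 16.8% under Ras-induced mesas. That is close to the 19.1% of chromosome 9 as a whole, and a row of 5 on chromosome 2 between 122259001 and 132150999 had 22.8%, close to the autosomal share. Members are defined by low Ras cover, so low Ras cover in a row follows in part from the choice.

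Few members lay near the ends of the listed span of their chromosome. Of the 228, 15 had a midpoint within 5 Mb of an end of the span covered by any list (6.58%, interval 3.73 to 10.6%), against 53 of 359 mostly shared mesas (14.8%, interval 11.3 to 18.9%) and a background of 11.6%. This span need not reach the end of the chromosome. On chromosome 15 it starts with a LAD at 18170001, so the member at 18261001 to 18829999 is among the 15. The counts are therefore not counts of regions near true chromosome ends, and they were not split by this. The median distance to the nearer end of the span was 36.3 Mb for members and 19.7 Mb for mostly shared mesas. A check added once the values were known left out mesas within 5 Mb of an end of the span. The difference in H3K27me3 mesa cover was then -16.6 points, against -17.9 points with all mesas. Whether position near an end plays a part was not tested.

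The counterpart of the members in the other list is the set of 442 autosomal Ras-induced mesas with less than 50% of their base pairs under replicative mesas. These lay less in LADs than the members, with 73.2% of their base pairs there against 90.6%, and 163 of them (36.9%) were wholly inside 1 LAD. The share with at least 50% of base pairs under canyons was 34.2% for these Ras-induced mesas and 14.9% for members, and under H3K27me3 mesas 26.5% and 28.1%. Their median length was 700 kb against 639 kb. These 442 regions and the members thus differed mainly in LAD and canyon cover, and less in H3K27me3 gain. Shares over all 755 autosomal Ras-induced mesas are not given here. Whether the contrast is particular to the 442 or holds for the whole Ras-induced list is therefore not told. The LAD and H3K27me3 lists come from proliferating and replicatively senescent cells, not from the Ras experiment, and the part of that difference in source was not tested.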

How the data were processed

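The libraries were 17 ChIP-seq samples in 11 groups, and the files used are 5 lists of regions deposited by the authors, with other (coordinate) values only: chromosome, start and end. The submitters' processing notes name Bowtie 0.12.5 and the build hg18. How regions were called, with which cutoffs, whether H3 served for normalization and whether replicates were pooled is not given in the sources used here. GEO's description field of the senescent H3K4me3 library, and of 1 of the 2 senescent H3K27me3 libraries, reads "[delete]]", and what the submitters meant by it is unclear. All 228 members rest on the authors' list made with that H3K4me3 library.

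Coordinates were read as BED and are printed counted from 1. Overlaps, distances and shares were computed in Python 3.11.15 with numpy 2.4.6 and scipy 1.17.1. The interval functions were tested on 300 simulated region sets against counts base by base, with 0 mismatches. Chromosome ends are the lowest start and highest end in any list. A share of 100% means within 0.0001 points. Named regions are the 5 longest members, the 5 farthest from a Ras-induced mesa, the 3 with the highest and the 3 with the lowest LAD cover, the 3 with the highest H3K27me3 mesa cover, the 3 with the highest canyon cover, and 3 on either side of the limit; others were chosen after their values were seen. Ties went to the longer region, then to chromosome and start order. Members, measures and comparison sets were chosen with earlier results of these data known. Alternatives were stricter limits of Ras cover, wider Ras-induced mesas, longer mesas only, X and Y included, 1-based coordinates, joined LADs and leaving out each autosome. No gene or sequence is named, because no annotation of hg18 was used here.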

Additional observations from a re-analysis of the deposited data

How the results depend on the processing

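Of 107 values recomputed over 12 results, 101 stayed within a set limit, 4 moved beyond it and 2 changed sign. The limit was taken from the 95% counting interval, except for the number of members, where it was a fold change. Of 37 differences between members and the other replicative mesas, 35 kept their sign. Under the stricter limits of Ras cover, the other mesas also take in former members with less than 50% cover. The difference in canyon cover, 1.14 points, turned to -0.452 points with Ras-induced mesas extended by 50 kb and to -0.130 points with chromosomes X and Y included, so no direction is given to it. With mesas of at least 700 kb only, 91 members remained, with a median length of 828 kb, which the choice itself sets. Members with no Ras overlap had a median distance of 1230 kb, again by construction, and with X and Y the median LAD length was 1845 kb. The difference in H3K27me3 mesa cover ran from -20.7 to -15.9 points over all alternatives. The value of -20.7 points sets members with no Ras overlap against all other autosomal replicative mesas. Joining LADs across 50 kb changed nothing, because the smallest gap between LADs is 60 kb. No paired analysis was possible because the lists hold no values per replicate, and no replicate could be left out for the same reason. Depth is unknown.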

Other observations

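On chromosome X, which the selection leaves out, 37 of 61 replicative H3K4me3 mesas had less than 50% of their base pairs under Ras-induced mesas (60.7%, Clopper-Pearson 95% interval 47.3 to 72.9%), against 38.8% of autosomal mesas (interval 34.9 to 42.9%). Of these 37, 25 had no Ras overlap, their median length was 821 kb, and 96.0% of their base pairs lay in LADs. H3K27me3 mesas covered 46.9% of the base pairs of all 37 and 65.6% of those of the 24 other X mesas. The lower cover of regions with less than 50% of their base pairs under Ras-induced mesas was thus seen there too. The difference was not tested.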
